A study of Homo sapiens with 24 samples.

Results

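The 9 genes described here are GDF15 and 8 textbook targets of the transcription factor p53 (CDKN1A, MDM2, BBC3, BAX, FAS, TP53I3, SESN1 and RRM2B), followed through 24 RNA-seq libraries of prostate cancer (PCa) cells in which the RNA methyltransferase METTL3 was depleted. They are 9 of the 60675 genes in the count files, and all 9 passed the filter on low counts in both cell lines. The 8 targets were listed by name. GDF15 was selected on its measured log2 fold change upon METTL3 depletion in vehicle-treated LNCaP:C4-2, so the values of that comparison are given for the members as a description, without a test, and no p-value is given for GDF15 in any comparison that uses those libraries.

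Each combination of cell line, siRNA and treatment was represented by 3 libraries. LNCaP:C4-2 (LNCaP:C42 in the sample labels) is a castrate resistant line derived from LNCaP, and 22Rv1 is a line from a relapsed xenograft that also expresses androgen receptor variants. Pooled siRNAs directed at METTL3 (siMETTL3) were used for depletion, and a pool without a target (siSCR) served as control. A repeat transfection followed 48 h later, when 1 nM R1881, a synthetic androgen, or ethanol as vehicle was added for 72 h. All 8 groups were therefore transfected cells in medium with charcoal-stripped serum, which is depleted of steroids, and a vehicle group is an androgen-poor state rather than routine culture. Each line is a single established line, the depletion is transient and partial, and the labels do not say that the 3 libraries of a group came from separate cultures, so p-values measure the spread between these libraries, which may be technical. Fewer cells and less RNA per cell cannot be told apart in these samples.

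p53 is a stress-responsive transcription factor. It binds response elements made of a repeated short site and switches on genes that stop the cell cycle (CDKN1A, the inhibitor p21), drive apoptosis (BBC3, also called PUMA, together with BAX and the death receptor FAS), handle oxidants and nucleotides (TP53I3, SESN1, RRM2B) and feed back on p53 itself (MDM2, the ubiquitin ligase that degrades it). GDF15 is a secreted stress cytokine of the TGF-β superfamily that signals through the brainstem receptor GFRAL with RET, and it is induced both by p53 and by the integrated stress response factors ATF4 and DDIT3 (CHOP). GDF15 is abundant in prostate cancer cells, where androgen is known to act on it as well.

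The p53 elements are shown because they are what the 8 targets are supposed to share. The rule that chose the genes did not use sequence, but the status of textbook target rests in part on such elements. The count of matches is therefore not independent of the choice of genes. The 20-base p53 consensus, 10-base sites in tandem with no spacer, was searched on both strands within 3000 bases of each annotated start in GRCh38 (GENCODE annotation), with at most 2 mismatches. A match was present for 8 of the 9 genes, all but SESN1, against 14.2% of 20046 protein-coding genes in windows of the same length. At no more than 1 mismatch it remained for 1 of the 9, RRM2B, against 1.25% of protein-coding genes. The matches below run 5′ to 3′ on the strand given, and the capitals mark the 4-base core of each 10-base site.
GDF15 (chr19:18385308-18385327, plus strand): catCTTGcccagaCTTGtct
CDKN1A, distal (chr6:36676449-36676468, plus strand): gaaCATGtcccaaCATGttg
CDKN1A, proximal (chr6:36677331-36677350, plus strand): gaaGAAGactgggCATGtct
MDM2 (chr12:68808923-68808942, plus strand): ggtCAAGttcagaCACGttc
BBC3 (chr19:47232568-47232587, minus strand): gggTCTGcccaggCATGtcc
BAX (chr19:48955213-48955232, plus strand): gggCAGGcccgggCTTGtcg
FAS (chr10:88991309-88991328, plus strand): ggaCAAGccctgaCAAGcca
TP53I3 (chr2:24086781-24086800, minus strand): ataCATCctcagaCATGttt
The GDF15 match is centred at -840.5 bases from the start of its canonical transcript and the distal CDKN1A match at -2255.5 bases. Against the gene spans of the count files the GDF15 match lies inside the gene and the distal CDKN1A match overlaps the gene's first base. Those of MDM2 (755.5 bases), BAX (347.5 bases) and FAS (520.5 bases) lie after the start of the canonical transcript, as does that of RRM2B, whose sequence is not reported here. A match is a description of these letters and not evidence of binding.

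The 9 genes lie on 6 autosomes, with GDF15 (ENSG00000130513, chr19:18374731-18389176), BBC3 (ENSG00000105327, chr19:47220822-47232766) and BAX (ENSG00000087088, chr19:48954815-48961798) all on chromosome 19. CDKN1A (ENSG00000124762, chr6:36676460-36687339) and SESN1 (ENSG00000080546, chr6:108986437-109094819) are on chromosome 6. MDM2 (ENSG00000135679) spans chr12:68808172-68850686, FAS (ENSG00000026103) chr10:88990531-89015785 and TP53I3 (ENSG00000115129) chr2:24077433-24085861. RRM2B (ENSG00000048392) is on chromosome 8. The counting used no strand option, and 11.7% of the FAS exon bases overlap ACTA2 on the opposite strand, 9.22% of those of MDM2 and 7.09% of those of SESN1 overlap other annotated genes. GC content of the exons separates the members sharply: BBC3 (64.4%), BAX (60.7%), GDF15 (59.99%), CDKN1A (57.8%) and TP53I3 (56.1%) are GC-rich, and FAS (43.6%), SESN1 (43.4%), MDM2 (41.9%) and RRM2B (38.6%) are not.

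Library totals ran from 15716224 to 21306019 counts. METTL3 was lower in every siMETTL3 library than in every siSCR library of its line, at 17.5 to 22.7 against 26.5 to 35.95 CPM (counts scaled to a common library size) in LNCaP:C4-2 and 21.2 to 25.4 against 45.5 to 51.6 CPM in 22Rv1, so the depletion was partial. The log2 fold change of METTL3 was -0.61 ± 0.11 in vehicle (adjusted p = 0.0127) and -0.57 ± 0.11 with R1881 (adjusted p = 0.0256) in LNCaP:C4-2, and -0.89 ± 0.082 (adjusted p = 1.48e-06) and -1.18 ± 0.083 (adjusted p = 1.29e-08) in 22Rv1. The KLK3, KLK2 and TMPRSS2 androgen response marked all LNCaP:C4-2 R1881 libraries as labelled. They belong to a list of 10 prostate epithelial markers. In LNCaP:C4-2, R1881 called 5 of the 10 higher and 0 lower with siSCR, and 5 higher and 1 lower with siMETTL3 (15.1% and 10.6% of all genes called). In 22Rv1 it called 0 higher and 2 lower with siSCR, and 2 higher and 2 lower with siMETTL3 (13.8% and 13.5%). The list therefore gave no such check of the 22Rv1 treatment labels. All 10 prostate epithelial markers were tested in both lines, with summed levels of 2792 to 5255 CPM in LNCaP:C4-2 and 1363 to 1539 CPM in 22Rv1. The 10 basal, stromal, endothelial and immune markers summed to 45.5 to 78.9 CPM and 15.2 to 29.5 CPM, with 3 to 5 of them at 0 counts in every group. A pair of LNCaP:C4-2 libraries stood apart from their groups. Library 1 of siSCR with R1881 had 7.08% mitochondrial counts against 9.73% and 9.69%, and library 1 of siMETTL3 in vehicle had 9.60% against 6.89% and 7.03%. Their METTL3 and KLK3 levels fitted their labels. Without both, 4.18% of all genes were called upon depletion in vehicle and 11.3% with R1881, against the 1.2% and 0.7% given below with all libraries. LNCaP:C4-2 values without them are given below for many of the results they changed, but not for all. In 22Rv1, library 1 of siMETTL3 in vehicle had 7.45% mitochondrial counts against 5.27% and 5.04% in the others of its group. It was kept, and its effect is covered only by the omissions of 1 library.

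Between genes, levels were compared in TPM, which divides by exon length. GDF15 was the most abundant of the 9 in all 8 groups and CDKN1A came next. In vehicle-treated siSCR LNCaP:C4-2 the mean level of GDF15 was 205 ± 69.52 TPM (SD, n = 3) and that of CDKN1A 79.9 ± 4.21 TPM, followed by BAX at 49.3 ± 4.03, RRM2B at 37.1 ± 3.01, MDM2 at 31.52 ± 2.98 and SESN1 at 20.1 ± 1.09 TPM. TP53I3 (5.91 ± 0.909 TPM) and BBC3 (5.24 ± 1.47 TPM) were next to each other within their spread, and FAS was lowest at 2.92 ± 0.0969 TPM. In 22Rv1 the order differed in the apoptosis genes: BBC3 ranked after GDF15 and CDKN1A at 103 ± 21.48 TPM and TP53I3 last at 2.01 ± 0.449 TPM, while RRM2B (54.8 ± 7.51 TPM) and MDM2 (47.3 ± 4.503 TPM) did not differ beyond their spread.

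**Figure D1:**
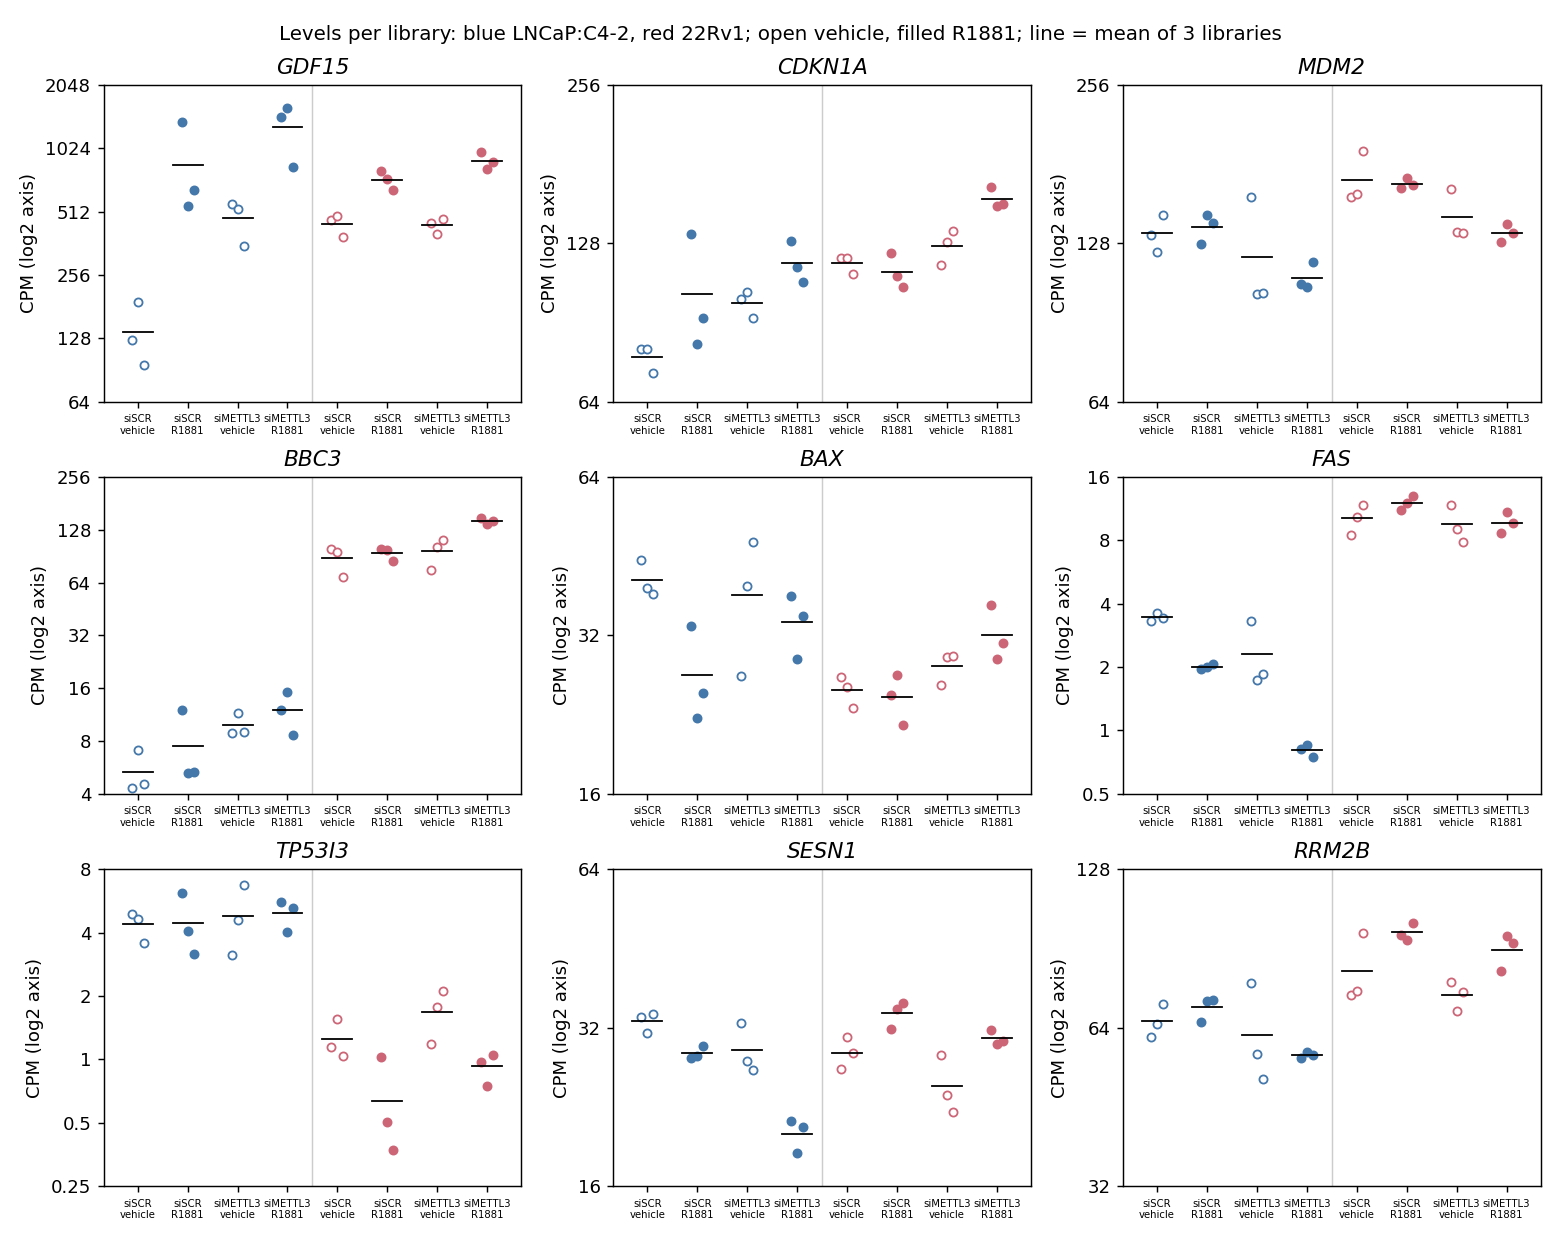
Level of each of the 9 genes in every library, in CPM on a log2 axis, by cell line, siRNA and treatment, with 3 points a group and their mean as a line. GDF15 is higher with R1881 than in vehicle for each line and siRNA, BBC3 sits far higher in 22Rv1 than in LNCaP:C4-2, and FAS reaches its lowest level, 0.749 to 0.851 CPM, in LNCaP:C4-2 with siMETTL3 and R1881.

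GDF15 ranged more widely than any other member within LNCaP:C4-2. In vehicle with siSCR its levels in the 3 libraries were 125, 189.97 and 95.7 CPM, and in vehicle with siMETTL3 559, 527 and 351 CPM. With R1881 they were 1359, 545 and 646 CPM after siSCR and 1443, 1583 and 834 CPM after siMETTL3. The vehicle groups did not overlap, and both R1881 groups lay above their own vehicle group, whereas the R1881 groups overlapped each other because library 1 of siSCR reached the level of the siMETTL3 libraries. The highest group mean was thus that of depleted, androgen-treated cells at 1287 ± 398 CPM (SD, n = 3), and the lowest that of control cells in vehicle at 137 ± 48.2 CPM.

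In vehicle-treated LNCaP:C4-2 the log2 fold change of GDF15 upon METTL3 depletion was 1.79 ± 0.33 (SE), which is 3.46-fold and the value it was chosen for. Leaving out any 1 of the 6 libraries moved it between 1.59 and 2.10, and leaving out both libraries that stood apart gave 1.67. Differentially expressed genes (DEGs) were those with an adjusted p under 0.05 and at least 1.5-fold in the edgeR quasi-likelihood test, and 1.2% of 16435 genes were called in this comparison, from which nothing is read for the members. The other 8 members had log2 fold changes between -0.61 (FAS) and 0.86 (BBC3), with CDKN1A at 0.32 ± 0.14, and without both libraries that stood apart FAS was at -0.96, BBC3 at 0.93 and MDM2, at -0.16 with all libraries, at -0.40. BBC3 levels were 4.31, 7.14 and 4.57 CPM with siSCR and 8.86, 11.6 and 8.96 CPM with siMETTL3, without overlap.

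With R1881, depletion left GDF15 at a log2 fold change of 0.61 ± 0.32 in LNCaP:C4-2 (edgeR, adjusted p = 0.219). Without library 1 of siSCR the value was 1.09 (adjusted p = 0.0195), and without both libraries that stood apart also 1.09 (adjusted p = 0.00110), so that 1 library decided this call. With an offset for GC content and all libraries it was 0.32 (adjusted p = 0.577). In the fit of both factors the interaction of R1881 and siMETTL3 for GDF15 was -1.18 ± 0.45, or -0.57 without both libraries, a value that shares the vehicle libraries on which GDF15 was chosen.

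In 22Rv1, GDF15 began higher and moved less. Its levels were 467, 486 and 389 CPM in vehicle with siSCR and 449.6, 399.6 and 473 CPM in vehicle with siMETTL3. With R1881 they were 802, 733 and 646 CPM with siSCR and 978, 812 and 881 CPM with siMETTL3. The vehicle groups overlapped, and the lowest siMETTL3 library with R1881 lay just above the highest siSCR library. METTL3 depletion gave a log2 fold change of -0.022 ± 0.093 in vehicle (edgeR, adjusted p = 0.932) and of 0.28 ± 0.093 with R1881 (adjusted p = 0.0453), under 1.5-fold. With the GC offset the latter was 0.064 (adjusted p = 0.632), and adjusted p was over 0.05 without library 2 or 3 of siSCR or library 1 or 3 of siMETTL3 (log2 fold change 0.20 to 0.29).

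GDF15 was higher with R1881 in both lines and with both siRNAs. In 22Rv1 the log2 fold change was 0.69 ± 0.093 with siSCR (edgeR, adjusted p = 6.02e-06) and 0.99 ± 0.094 with siMETTL3 (adjusted p = 3.45e-08), and every 22Rv1 R1881 library exceeded every vehicle library of its siRNA. In LNCaP:C4-2 it was 2.62 ± 0.34 with siSCR and 1.44 ± 0.32 with siMETTL3, or 2.13 and 1.55 without the libraries that stood apart. In 22Rv1 GDF15 remained called as higher with both siRNAs in all 9 alternatives and all 6 omissions of 1 library, and the LNCaP:C4-2 values, which share the selecting libraries, are a description. The interaction in 22Rv1 was 0.30 ± 0.13 (unadjusted p = 0.0329, adjusted p = 0.810), so a change of the androgen response of GDF15 by depletion was not shown in that line.

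The stress factors and the receptor that belong to GDF15 biology were followed as a list of 10 genes, chosen with earlier results of these data known. In vehicle-treated LNCaP:C4-2, METTL3 depletion called 3 of 9 tested as higher and 0 as lower, namely ATF3 (1.07 ± 0.17), DDIT3 (0.84 ± 0.18) and TRIB3 (0.62 ± 0.10, a pseudokinase target of DDIT3), with a list median log2 fold change of 0.52 against 0.0014 over all genes, where 1.2% were called. Without both libraries that stood apart the same 3 were called, at 0.97, 0.75 and 0.66, beside 4.18% of all genes. ATF4, the translationally controlled regulator above them, was at 505 ± 20.8 CPM after siSCR and 525 ± 54.3 CPM after siMETTL3. With R1881 in LNCaP:C4-2 depletion called 0 of 9, beside 0.7% of all genes, or 1 of 9 without both libraries that stood apart (11.3%). In 22Rv1 it called 0 of 8 in vehicle (0.202%) and 0 of 8 with R1881 (3.29%). At an unadjusted p under 0.05 (edgeR) there were 5 in LNCaP:C4-2 with R1881 (4702 of 16435 genes). In 22Rv1 there were 2 in vehicle and 6 with R1881 (2604 and 5712 of 17865). Of the 6, 3 passed the adjusted p, under 1.5-fold (16.2% of all genes). In 22Rv1, R1881 called EGR1 (0.83) and DDIT3 (0.74) as higher with siSCR, and EGR1 (0.97), DDIT3 (0.94) and PPP1R15A (0.65, the phosphatase subunit that reverses the stress response) with siMETTL3, of 8 tested, beside 13.8% and 13.5% of all genes. In LNCaP:C4-2, R1881 with siSCR called ATF3 alone of 9 tested (1.16 ± 0.17), beside 15.1% of all genes. The level of ATF3 was 19.95 ± 4.96 CPM in vehicle and 45.03 ± 7.91 CPM with R1881. With siMETTL3, R1881 called 0 of 9 in that line, beside 10.6%. GFRAL had 2 counts in 1 library of vehicle-treated siSCR 22Rv1 and 0 counts in every other, where a count of 0 allows up to 3 counts, so the receptor transcript was not detectable above that limit at this depth.

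CDKN1A, which encodes the cyclin-dependent kinase inhibitor p21, moved within a narrow range. In LNCaP:C4-2 its levels were 80.6, 80.7 and 72.47 CPM (siSCR, vehicle), 100.3, 103 and 92.3 CPM (siMETTL3, vehicle), 133, 82.52 and 92.1 CPM (siSCR, R1881) and 129, 115 and 108 CPM (siMETTL3, R1881). The R1881 groups overlapped because library 1 of siSCR was the highest of all. With R1881 its log2 fold change upon depletion was 0.20 ± 0.14 (edgeR, adjusted p = 0.336), or 0.41 (adjusted p = 0.00116) without both libraries that stood apart. With the GC offset and all libraries it was -0.046 (adjusted p = 0.864).

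In 22Rv1 the CDKN1A levels were 120.1, 119.98 and 112 CPM (siSCR, vehicle), 116, 129 and 135 CPM (siMETTL3, vehicle), 123, 111 and 106 CPM (siSCR, R1881) and 164, 151 and 152 CPM (siMETTL3, R1881). The last group stood above all others without overlap. Depletion changed CDKN1A by 0.45 ± 0.077 with R1881 (edgeR, adjusted p = 0.00156, higher in 3 of 3 libraries), and the change passed the adjusted p in all 9 alternatives and all 6 omissions of 1 library, with 0.27 (adjusted p = 0.00109) under the GC offset. In vehicle it was 0.11 ± 0.077 (adjusted p = 0.524). R1881 changed CDKN1A by 0.27 ± 0.077 with siMETTL3 (adjusted p = 0.00877) and by -0.061 ± 0.077 with siSCR (adjusted p = 0.583), and the test of that difference, the interaction, gave 0.33 ± 0.11 (unadjusted p = 0.00578, adjusted p = 0.802).

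Its relatives in the same inhibitor family were followed as well. CDKN1C (p57) rose with depletion in vehicle-treated LNCaP:C4-2 by 1.24 ± 0.27 on the log2 scale (adjusted p = 0.0321) and with R1881 in the same line by 1.67 ± 0.27 with siSCR (adjusted p = 0.000343) and 0.89 ± 0.26 with siMETTL3 (adjusted p = 0.0270). CDKN1B (p27) rose with R1881 in LNCaP:C4-2 with siSCR by 0.59 ± 0.17 (adjusted p = 0.0177), where CDKN1A itself was at 0.39 ± 0.14 (adjusted p = 0.0537). CDKN1A passed the adjusted p there in 5 of 9 alternatives, with 0.45 (adjusted p = 0.00369) under the GC offset, and was at 0.17 (adjusted p = 0.135) without both libraries that stood apart. Without these, CDKN1B was at 0.39 in that comparison, under the fold threshold. Upon depletion with R1881 in LNCaP:C4-2, CDKN1C was called without these libraries but not with all. It was then at 0.84 (edgeR, adjusted p = 0.000959), beside 11.3% of all genes called.

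MDM2 fell with depletion under R1881 in 22Rv1. Its levels there were 163, 169.97 and 165 CPM with siSCR and 128, 139 and 134 CPM with siMETTL3, without overlap. The log2 fold change was -0.33 ± 0.082 (edgeR, adjusted p = 0.0122), under 1.5-fold, and -0.18 (adjusted p = 0.0181) with the GC offset, or -0.14 (adjusted p = 0.0688) with the offset for GC and length. Without library 2 of siSCR or library 1 of siMETTL3 adjusted p was 0.0598 and 0.0744. With vehicle the 22Rv1 groups overlapped (157, 159 and 192 CPM against 162, 135 and 134 CPM), at -0.23 ± 0.082 (unadjusted p = 0.00904, adjusted p = 0.196). Over the 6 omissions of 1 library that value ran from -0.32 to -0.14, with adjusted p from 0.0175 to 0.679, and 1 of the 6 passed.

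In LNCaP:C4-2 with R1881, MDM2 was at 127, 145 and 139.8 CPM with siSCR and 107, 106 and 118 CPM with siMETTL3, also without overlap, and the log2 fold change of -0.31 ± 0.14 had an adjusted p of 0.161 (edgeR). Without both libraries that stood apart it was -0.39 (adjusted p = 0.00100), and with the GC offset and all libraries -0.10 (adjusted p = 0.559). R1881 itself left MDM2 between -0.12 and 0.032 in all 4 comparisons, with adjusted p from 0.279 to 0.898. Of 15 tested regulators of p53, depletion called 0 in all 4 comparisons by edgeR, and DESeq2 called 0 as well, with 1 gene lacking its adjusted p in 3 of them. At an unadjusted p under 0.05 there were 1 and 1 in LNCaP:C4-2 (vehicle and R1881), beside 2636 and 4702 of all 16435 genes, and 3 and 11 in 22Rv1, beside 2604 and 5712 of 17865. In 22Rv1 with R1881, 6 of the 15 passed the adjusted p under 1.5-fold, beside 16.2% of all genes. In LNCaP:C4-2 with R1881, 2 of the 15 were called without both libraries that stood apart, beside 11.3%. HIPK2, a kinase that phosphorylates p53, rose with R1881 in LNCaP:C4-2 by 1.78 ± 0.15 with siSCR (adjusted p = 4.83e-07) and 1.62 ± 0.15 with siMETTL3 (adjusted p = 1.67e-06).

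BBC3 encodes PUMA, a BH3-only protein that releases BAX. In 22Rv1 its levels were 100.02, 95.6 and 69.03 CPM (siSCR, vehicle), 75.1, 102 and 112 CPM (siMETTL3, vehicle), 99.96, 97.9 and 85.3 CPM (siSCR, R1881) and 150.3, 138 and 143 CPM (siMETTL3, R1881). Depleted cells with R1881 were the highest group, without overlap with any other. BBC3 was the only member called upon depletion with R1881 in 22Rv1, at 0.59 ± 0.13 (edgeR, adjusted p = 0.00518), where 3.29% of 17865 genes were called. It lies at the 1.5-fold threshold: without library 3 of siSCR or library 1 of siMETTL3 it was 0.53 and 0.56, and with the GC offset 0.31 (adjusted p = 0.00243). By adjusted p alone, 5 of the 9 members passed, with GDF15, CDKN1A, BBC3 and BAX higher and MDM2 lower, and 16.2% of all genes passed.

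In LNCaP:C4-2 with R1881, BBC3 was at 11.96, 5.23 and 5.33 CPM with siSCR and 11.95, 15.2 and 8.70 CPM with siMETTL3. The groups overlapped through library 1 of siSCR, and the log2 fold change was 0.68 ± 0.29 (edgeR, adjusted p = 0.148). Without that library it was 1.16 (adjusted p = 0.0134), and with the GC offset and all libraries 0.27 (adjusted p = 0.577). R1881 changed BBC3 in 22Rv1 with siMETTL3 by 0.55 ± 0.13 (adjusted p = 0.00200) and with siSCR by 0.089 ± 0.13 (adjusted p = 0.636), or 0.66 (adjusted p = 1.01e-08) and 0.35 (adjusted p = 0.000157) with the GC offset. The interaction was 0.46 ± 0.18 (unadjusted p = 0.0184, adjusted p = 0.802).

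BAX, the pore-forming effector of mitochondrial apoptosis, fell with R1881 in LNCaP:C4-2 with siSCR. Its levels were 44.46, 39.4 and 38.3 CPM in vehicle and 33.4, 22.3 and 24.9 CPM with R1881, without overlap. The log2 fold change was -0.61 ± 0.19 (edgeR, adjusted p = 0.0265). The call was lost without vehicle library 1 or 2 or R1881 library 2 or 3, where the values ran from -0.63 to -0.50, and it held without vehicle library 3 (-0.65) or R1881 library 1 (-0.78). With the GC offset the value was -0.52, under the fold threshold, and without both libraries that stood apart -0.78. With siMETTL3 the corresponding libraries were at 26.8, 39.7 and 48.2 CPM and 38.02, 28.9 and 34.8 CPM, overlapping, with a log2 fold change of -0.16 ± 0.19 (adjusted p = 0.614, or -0.37 with adjusted p = 0.0235 without library 1 in vehicle, which stood apart) and an interaction of 0.45 ± 0.26 (adjusted p = 0.466). In 22Rv1 with R1881, depletion moved BAX from 24.7, 26.9 and 21.6 CPM to 36.55, 28.9 and 30.99 CPM, a log2 fold change of 0.38 ± 0.11 (adjusted p = 0.0192) or 0.15 (adjusted p = 0.217) with the GC offset.

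FAS, the death receptor, had the fewest counts of the members in LNCaP:C4-2. Its levels were 3.31, 3.60 and 3.42 CPM (siSCR, vehicle), 1.95, 2.003 and 2.06 CPM (siSCR, R1881), 3.32, 1.73 and 1.85 CPM (siMETTL3, vehicle) and 0.816, 0.851 and 0.749 CPM (siMETTL3, R1881), the last resting on 14, 15 and 13 counts. The lowest group did not overlap any other, and library 1 of siMETTL3 in vehicle, which stood apart, was at the siSCR level. FAS was the only member called upon depletion with R1881 in LNCaP:C4-2, where 0.7% of genes were called, with a log2 fold change of -1.30 ± 0.29 (edgeR, adjusted p = 0.0484). Adjusted p was over 0.05 in 5 of 6 omissions of 1 library, all but that of siSCR library 1, at log2 fold changes of -1.35 to -1.26. DESeq2 gave no adjusted p for it. With the GC offset it was -1.14 (adjusted p = 0.0491), and without both libraries that stood apart -1.34 (adjusted p = 0.00127). By adjusted p alone 2 members passed there, FAS and SESN1, against 0.937% of genes. Without both libraries GDF15, BBC3 and FAS were called, beside 11.3% of genes.

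FAS fell with R1881 in LNCaP:C4-2, with a log2 fold change of -0.79 ± 0.24 with siSCR (edgeR, adjusted p = 0.0277) and of -1.48 ± 0.29 with siMETTL3 (adjusted p = 0.00183), and the interaction was -0.69 ± 0.38 (adjusted p = 0.445). The first call was lost in all 6 omissions of 1 library at -0.82 to -0.75, and the second was kept in all 6. In 22Rv1, FAS was at 11.2, 12.02 and 12.98 CPM with siSCR and R1881 and 8.65, 10.9 and 9.65 CPM with siMETTL3 and R1881, a log2 fold change of -0.32 ± 0.15 (adjusted p = 0.131).

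TP53I3 encodes a quinone oxidoreductase linked to oxidative apoptosis. In 22Rv1 it was close to the detection limit, with 22, 29 and 19 counts in vehicle and 19, 9 and 7 with R1881 after siSCR, and 22, 42 and 41 and 16, 13 and 19 after siMETTL3. In counts R1881 library 1 of siSCR equalled vehicle library 3, and after scaling to CPM the R1881 libraries were all below the vehicle libraries of their siRNA, by 1.02 against 1.04 CPM for that pair. The log2 fold changes were -0.98 ± 0.38 (edgeR, adjusted p = 0.0519) and -0.88 ± 0.34 (adjusted p = 0.0523), just over 0.05, and the first was -1.50 (adjusted p = 0.0124) without R1881 library 1 and -1.10 (adjusted p = 0.0367) without vehicle library 3 of siSCR, and -0.71 (adjusted p = 0.214) without R1881 library 3, with 2 of 6 omissions passing. DESeq2 gave adjusted p of 0.0903 (siSCR) and 0.111 (siMETTL3). In LNCaP:C4-2 its levels lay between 3.12 and 6.72 CPM in all 12 libraries, with log2 fold changes for R1881 of 0.015 and 0.049.

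Of the partners of these apoptosis genes, BMF, a BH3-only protein, fell with R1881 in all 4 comparisons, with log2 fold changes of -0.86 ± 0.19 and -0.77 ± 0.19 in LNCaP:C4-2 and of -1.55 ± 0.11 and -1.44 ± 0.11 in 22Rv1 (siSCR and siMETTL3). CASP8, the initiator caspase recruited by FAS, rose with R1881 in 22Rv1 by 0.99 with siSCR and 0.72 with siMETTL3, and BID, the BH3-only protein it cleaves, fell with siMETTL3 (log2 fold change -0.79 ± 0.14). BCL2L1, an apoptosis inhibitor that binds BAX, rose by 0.82 ± 0.15 with R1881 in LNCaP:C4-2 with siMETTL3. R1881 called 1 and 2 of 14 tested partners in LNCaP:C4-2 (siSCR and siMETTL3), beside 15.1% and 10.6% of all genes. In 22Rv1 it called 2 and 3 of 15, beside 13.8% and 13.5%. Of 15 tested in 22Rv1, depletion with R1881 called BIK (0.63 ± 0.20) alone, beside 3.29% of all genes. In the remaining 3 depletion comparisons edgeR called 0 of the partners. All-gene shares were 1.2% and 0.7% in LNCaP:C4-2 (vehicle and R1881) and 0.202% in vehicle-treated 22Rv1. At an unadjusted p under 0.05 there were 2 and 7 in LNCaP:C4-2, beside 2636 and 4702 of 16435 genes. In vehicle-treated 22Rv1 there were 4, beside 2604 of 17865. DESeq2 called 0, 2 and 0, beside 349, 463 and 39 of all genes, with 1 partner lacking its adjusted p in each of the last 2. Without both libraries that stood apart 4 of 14 were called with R1881 in LNCaP:C4-2, beside 11.3% of all genes.

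SESN1, a sestrin that restrains mTORC1 under stress, fell in LNCaP:C4-2 when R1881 and depletion were combined. Its levels were 33.52, 31.3 and 33.9 CPM (siSCR, vehicle), 28.1, 28.3 and 29.6 CPM (siSCR, R1881), 32.7, 27.6 and 26.54 CPM (siMETTL3, vehicle) and 21.2, 18.4 and 20.7 CPM (siMETTL3, R1881). The combined group was below every other library of the line. With R1881 depletion gave -0.51 ± 0.11 (edgeR, adjusted p = 0.0422), with an adjusted p of 0.0829 to 0.194 in 5 of 6 omissions of 1 library, all but siSCR library 1, and -0.54 (adjusted p = 0.000358) without both libraries that stood apart. With the GC offset it was -0.34 (adjusted p = 0.0524), and with the offset for GC and length -0.34 (adjusted p = 0.0492). R1881 gave -0.51 ± 0.11 with siMETTL3 (adjusted p = 0.00367) and -0.21 ± 0.11 with siSCR (adjusted p = 0.172), with an interaction of -0.30 ± 0.15 (adjusted p = 0.418). With the GC offset these were -0.44 (adjusted p = 0.00076), -0.26 (adjusted p = 0.0186) and -0.18 (adjusted p = 0.511). In 22Rv1, R1881 moved SESN1 the other way, from 28.4, 23.8 and 22.1 to 31.7, 29.8 and 30.2 CPM with siMETTL3 (0.28 ± 0.10, adjusted p = 0.0291, over 0.05 in 5 of 6 omissions of 1 library).

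RRM2B encodes the p53-inducible subunit of ribonucleotide reductase, which supplies nucleotides for DNA repair. It rose slightly with R1881 in 22Rv1, by 0.24 ± 0.091 with siSCR (edgeR, adjusted p = 0.0461) and 0.26 ± 0.092 with siMETTL3 (adjusted p = 0.0310), and was at 0.081 and -0.11 in LNCaP:C4-2. In the 22Rv1 siSCR groups its levels overlapped (73.7, 75.1 and 96.7 CPM in vehicle, 95.9, 94.00 and 101 CPM with R1881), and the adjusted p was over 0.05 in 5 of 6 omissions with siSCR and in 4 of 6 with siMETTL3. Upon depletion with R1881 in LNCaP:C4-2, RRM2B was at -0.30 ± 0.13 (edgeR, adjusted p = 0.156). It was at -0.36 (adjusted p = 0.00270) without both libraries that stood apart and at -0.032 (adjusted p = 0.859) with the GC offset. Of the relatives of both genes, SESN3 fell with R1881 in LNCaP:C4-2 (log2 fold change -0.90 ± 0.17 with siSCR and -1.09 ± 0.17 with siMETTL3) and in 22Rv1 with siMETTL3 (-0.60 ± 0.088), and SESN2 fell in LNCaP:C4-2 with siSCR (-0.62 ± 0.15). The cell-cycle subunits RRM1 and RRM2 were at -0.34 ± 0.15 and -0.53 ± 0.17 in that comparison, under the fold threshold.

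**Figure D2:**
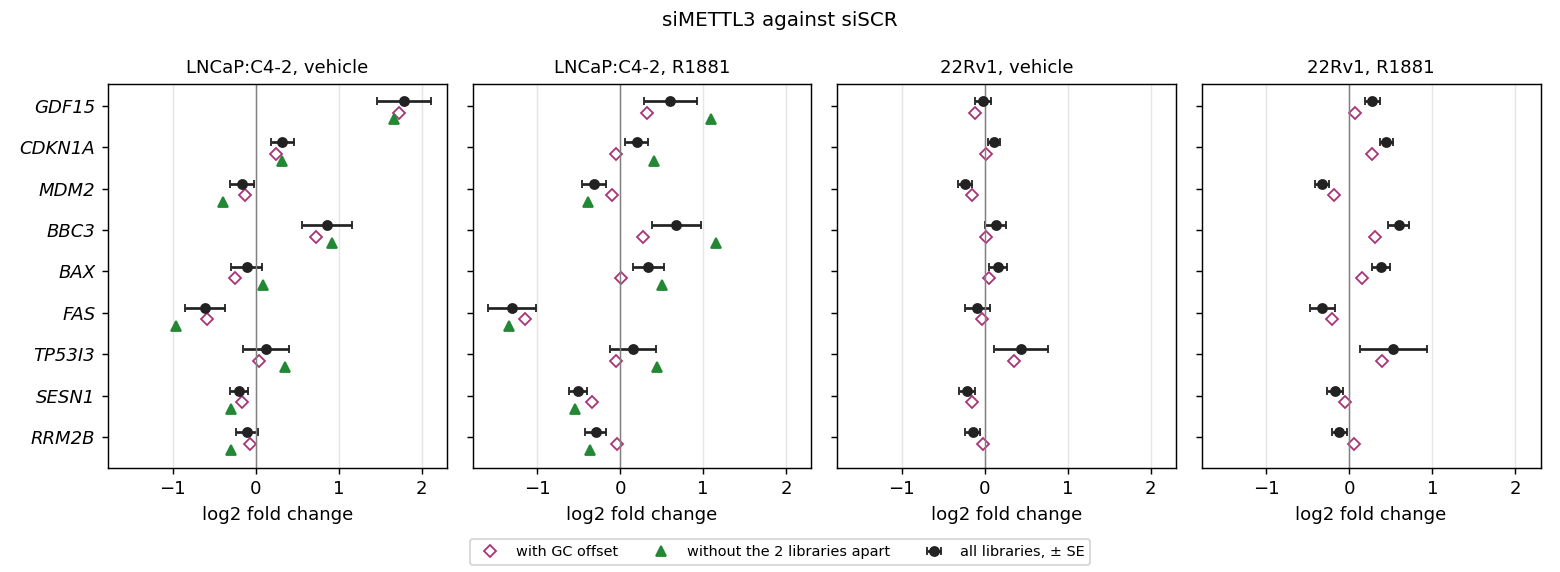
log2 fold change of the 9 genes for siMETTL3 against siSCR in the 4 comparisons, with the SE of the edgeR fit, the value with an offset for GC content (diamonds) and, in LNCaP:C4-2, the value without both libraries that stood apart (triangles). With R1881, the GC-rich members BBC3, GDF15, CDKN1A and BAX lie right of 0 and FAS, MDM2, SESN1 and RRM2B left of it in both lines, and the diamonds are nearer to 0, at 0.27 for BBC3 in LNCaP:C4-2.

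With R1881, the members with a positive log2 fold change upon depletion were the 5 GC-rich ones and those with a negative one the 4 others, in each line. With the GC offset CDKN1A (-0.046) and TP53I3 (-0.045) in LNCaP:C4-2 and RRM2B (0.062) in 22Rv1 had the opposite sign. The same order ran through the whole transcriptome. Over all genes tested in LNCaP:C4-2 with R1881, the median log2 fold change ran from -0.26 in the quintile of genes lowest in GC to 0.37 in the highest quintile, and in 22Rv1 with R1881 from -0.19 to 0.23. In vehicle it ran from -0.048 to 0.11 in LNCaP:C4-2 and from -0.12 to 0.12 in 22Rv1. For R1881 against vehicle it ran from 0.10 to -0.15 with siSCR and from -0.11 to 0.13 with siMETTL3 in LNCaP:C4-2. In 22Rv1 it ran from 0.13 to -0.16 and from 0.059 to -0.049. With the GC offset no member was called upon depletion with R1881 in 22Rv1, CDKN1A, MDM2 and BBC3 kept an adjusted p under 0.05, and GDF15 and BAX did not. With the offset for GC and length MDM2 did not either. The part of GC content in the member results was not tested beyond this offset.

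**Figure D3:**
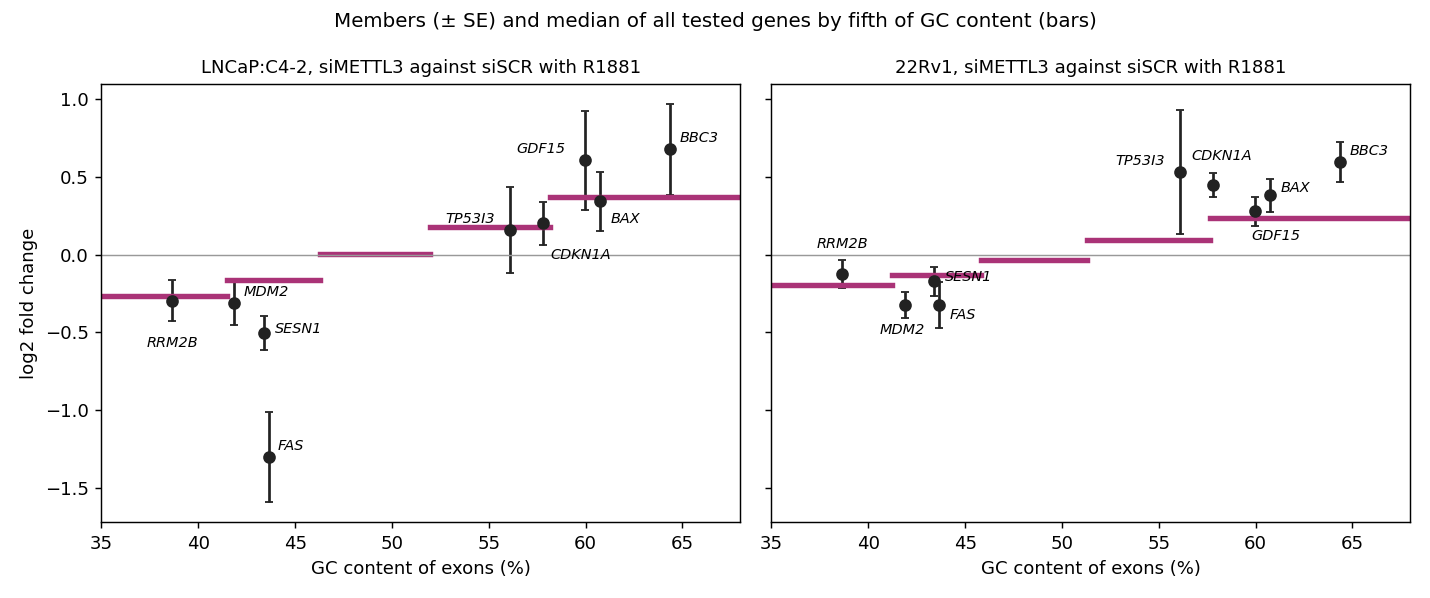
log2 fold change for siMETTL3 against siSCR of the 9 genes against the GC content of their exons in percent, with the median over all tested genes in each quintile of GC content (bars). The panels are LNCaP:C4-2 and 22Rv1 with R1881, points carry the SE, and the medians climb from left to right, with the members on the same side of 0 as the medians near them and FAS in LNCaP:C4-2, at -1.30, farthest from its median.

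In vehicle-treated 22Rv1, edgeR called 0 of the 9 members upon depletion, where 0.202% of genes were called. MDM2 and SESN1 were the 2 at an unadjusted p under 0.05, and DESeq2 called 0 of the 8 with an adjusted p. The test of whether depletion changed the R1881 response (interaction) called 0 members in either line by edgeR, where 0% (LNCaP:C4-2) and 0.0168% (22Rv1) of all genes were called. In 22Rv1 3 members (GDF15, CDKN1A, BBC3) had an unadjusted p under 0.05, and DESeq2 gave no adjusted p for 6 of the 9. In LNCaP:C4-2 DESeq2 called 0, and 0 of the 8 listed targets had an unadjusted p under 0.05.

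R1881 called 2 of the 8 listed targets in LNCaP:C4-2 with siSCR (BAX and FAS lower) beside 15.1% of all genes, with 7.72% of all genes called as lower. DESeq2 gave FAS an adjusted p of 0.0541 there. With siMETTL3 edgeR called 1 of the 8 (FAS lower) beside 10.6%, and 2 by adjusted p alone (with SESN1) beside 16.6%. In 22Rv1 R1881 called GDF15 alone with either siRNA, beside 13.8% with siSCR and 13.5% with siMETTL3. By adjusted p alone 2 members passed with siSCR (GDF15 and RRM2B) beside 33% of genes, and 5 with siMETTL3 (GDF15, CDKN1A, BBC3, SESN1 and RRM2B) beside 33.1%.

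**Figure D4:**
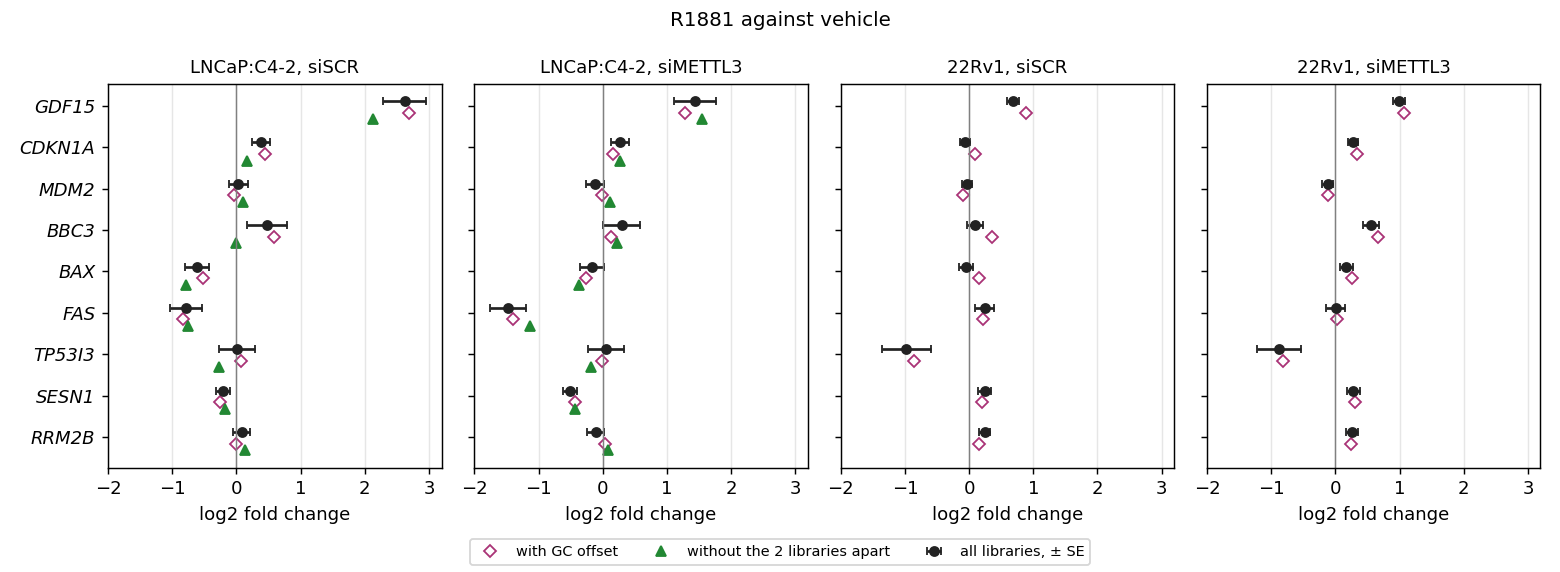
log2 fold change of the 9 genes for R1881 against vehicle in the 4 comparisons, with the SE of the edgeR fit, the value with an offset for GC content (diamonds) and, in LNCaP:C4-2, the value without both libraries that stood apart (triangles). GDF15 is right of 0 in all panels, at 2.62 and 1.44 in LNCaP:C4-2 and 0.69 and 0.99 in 22Rv1, and FAS is left of 0 in LNCaP:C4-2, at -0.79 and -1.48.

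A list of 40 further p53 targets, chosen with earlier results of these data known, was followed as well. R1881 in LNCaP:C4-2 with siSCR called 13 of 38 tested, 12 of them lower, with a list median log2 fold change of -0.27 against -0.028 over all genes, where 15.1% were called and 7.72% were called as lower. Without both libraries that stood apart it was again 13, 12 of them lower, beside 16.8% of all genes. The part of GC content in the values of this list was not tested. The lowest log2 fold changes were those of RAP2B, a small GTPase (-2.53 ± 0.12), PHLDA3, an AKT inhibitor (-1.25 ± 0.26), KITLG, the KIT ligand (-1.11 ± 0.27), and SPATA18, a mitochondrial quality protein (-1.03 ± 0.21). PERP, a desmosomal protein, was the 1 gene called higher (0.60 ± 0.088) and is named after its value was seen. With siMETTL3, R1881 called 5 of 38, all lower, with RAP2B at -2.34, KITLG at -1.29, TP53INP1 at -0.999 and CYFIP2 at -0.89, and a median of -0.10, beside 10.6% of all genes, and 9 were called, 8 of them lower, without both libraries that stood apart (11.4% of all genes).

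In 22Rv1, R1881 with siSCR called 4 of 39 of these targets, the kinase PLK2 (-1.89), GLS2 (-0.68) and E2F7 (-0.67) lower and the TRAIL receptor TNFRSF10B (0.64) higher, with a median of 0.022, beside 13.8% of all genes. With siMETTL3 it called 5, GADD45A (0.82), TNFRSF10B (0.79) and KITLG (0.65) higher and PLK2 (-2.10) and E2F7 (-0.79) lower, with a median of 0.11, beside 13.5%. METTL3 depletion called 1 of 38 in vehicle-treated LNCaP:C4-2 (PLK2, -0.77) and 1 of 38 with R1881 (ZMAT3, -0.80), beside 1.2% and 0.7% of all genes. Without both libraries that stood apart it called 3 (beside 4.18% of all genes) and 6 (beside 11.3%). In 22Rv1 it called 0 of 39 in vehicle and 0 with R1881 by edgeR, beside 0.202% and 3.29% of all genes. At an unadjusted p under 0.05 there were 7 and 16, beside 2604 and 5712 of 17865 genes. With R1881, 10 of the 39 passed the adjusted p under 1.5-fold, beside 16.2% of all genes. DESeq2 called 0 and 1, beside 39 and 494 of all genes, with 1 listed gene lacking its adjusted p in each.

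**Figure D5:**
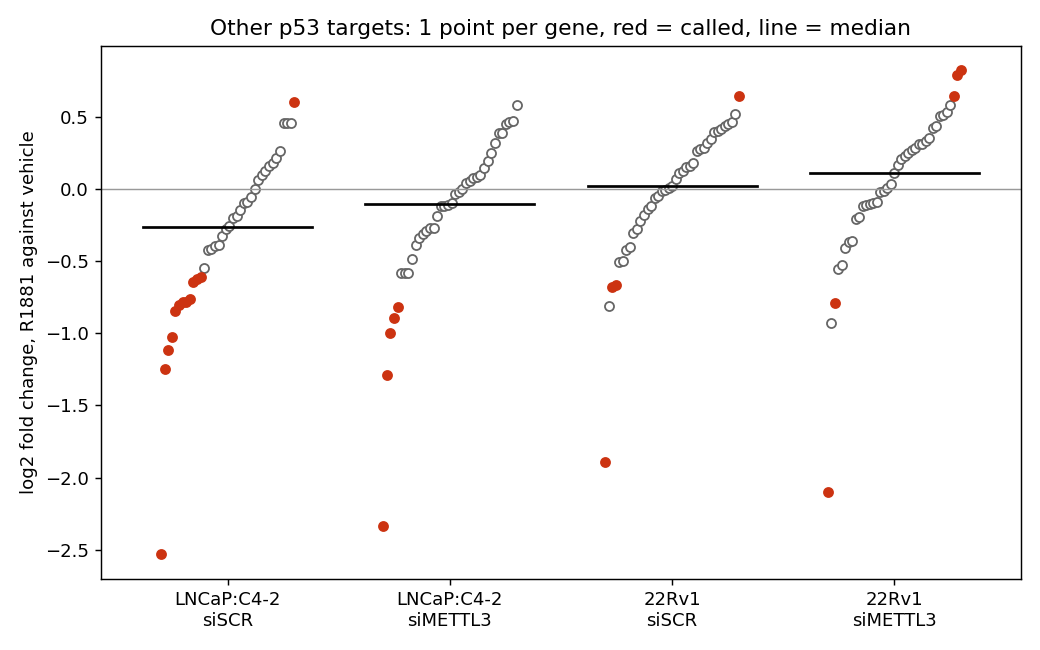
log2 fold change for R1881 against vehicle of the further p53 targets in each line and siRNA, 1 point per tested gene, filled where called, with the list median as a line. The list median is lowest for R1881 in LNCaP:C4-2 with siSCR, at -0.27, and its lowest point there is RAP2B at -2.53.

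Between the lines, 5 of the 8 listed targets were called in vehicle with siSCR, where 59.2% of all genes were called. BBC3 was 4.04 ± 0.25 higher in 22Rv1 on the log2 scale (edgeR, adjusted p = 6.9e-14), 16.4-fold, FAS 1.56 ± 0.18 (adjusted p = 2.43e-08) and CDKN1A 0.59 ± 0.12 (adjusted p = 7e-05), and GDF15, with the selecting libraries in the comparison, was 1.71 ± 0.26. BAX (-0.69 ± 0.16, adjusted p = 0.000375) and TP53I3 (-1.81 ± 0.31, adjusted p = 1.04e-05) were lower. CDKN1A fell under the fold threshold without siSCR vehicle library 3 of LNCaP:C4-2, at 0.58, and BAX did with the GC offset, at -0.56. The listed targets that were not called moved with the GC offset (edgeR). RRM2B went from 0.32 (adjusted p = 0.0183) to -0.18 (adjusted p = 0.0113). MDM2 went from 0.34 (adjusted p = 0.0136) to -0.062 (adjusted p = 0.433) and SESN1 from -0.20 (adjusted p = 0.0772) to -0.55 (adjusted p = 4.24e-07). Among the regulators TP73, a p53 family member (-3.15 ± 0.27), was lower in 22Rv1, and CDKN2A (22.6-fold) and MDM4, the partner of MDM2 (1.80 ± 0.11), were higher. Counts per gene do not separate the MDM2 inhibitor ARF from the other product of CDKN2A. Of the apoptosis partners HRK was 6.31 ± 0.27 and BCL2 3.46 ± 0.19 higher in 22Rv1. The line and any difference in the handling of the lines cannot be told apart.

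The androgen response itself differed between the lines for 2 of the 8 listed targets (edgeR test of the difference with siSCR), beside 16.8% of all genes. The difference, 22Rv1 minus LNCaP:C4-2, was 1.02 ± 0.28 for FAS (adjusted p = 0.0104) and 0.45 ± 0.14 for SESN1 (adjusted p = 0.0296). That of FAS held in all 12 omissions of 1 library and that of SESN1 in 3. CDKN1A was at -0.45 ± 0.17 (adjusted p = 0.0623) and passed in 7 of 9 alternatives, DESeq2 among them (adjusted p = 0.0243), and in 5 of 12 omissions, and without both libraries that stood apart it was at -0.30 (adjusted p = 0.0827). BAX was at 0.55 ± 0.23 (adjusted p = 0.0997), passing in 3 of 9 alternatives, with 0.67 under the GC offset, and was at 0.66 (adjusted p = 0.00503) without those libraries. GDF15 was at -1.93 ± 0.37, as a description. The effect of METTL3 depletion with R1881 differed between the lines for 0 members by edgeR and by DESeq2, with 2 (FAS and SESN1) at an unadjusted p under 0.05, and for 0.0926% of all genes. FAS was at 1.000 ± 0.33 (adjusted p = 0.376) in that test.

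Over the 8 group means the genes whose pattern was most like that of GDF15 among 15337 genes with a mean of at least 1 CPM were PER1 (a circadian repressor, root-mean-square difference of centred log2 CPM 0.295), MAFF (a stress-induced bZIP factor, 0.327), the unnamed gene ENSG00000280753 (0.428), SAT1 (a polyamine acetyltransferase, 0.432) and KYAT1 (0.460), where GDF15 itself varied by 0.920 around its mean. Those nearest to CDKN1A, which varied by 0.273, were CRY2 (0.0875), GTPBP1 (0.0881), TMEM101 (0.0882), EIF2D (0.0923) and SEC14L2 (0.0961). None of the other 8 members was among the 5 genes nearest to either.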

How the data were processed

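Gene expression was measured by RNA-seq in 24 libraries, 3 for each of 8 groups. Per the labels and methods, the authors used Trim Galore (cutadapt, FastQC) for trimming, STAR for alignment to GRCh38 and featureCounts for fragments per Ensembl gene, with no strand option in the file headers. The deposited values are raw counts, 15716224 to 21306019 per library, with no normalization. Of 60675 gene IDs, 56558 were named from GENCODE. The floor (3 counts) covers counting error only, whereas SD and SE also hold the spread between libraries.

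Groups and replicate numbers were taken from the labels. The 12 libraries of a line were fitted together with edgeR 4.0.16 in R 4.3.3 (a mean per condition, TMM, filterByExpr with a count minimum of 10 and a total of 15, quasi-likelihood test, Benjamini-Hochberg over all genes, 8 residual degrees of freedom). All 24 were fitted together for differences between lines. DEGs were called at an adjusted p under 0.05 and 1.5-fold, interactions and differences at adjusted p under 0.05 alone. Log2 fold changes carry the SE from the F statistic. Printed CPM use 1 TMM scaling over all libraries. Log2 CPM of libraries of a group correlated at 0.985 to 0.992 across genes, so no library was a copy of another.

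The members and lists were chosen with earlier results of these data known. Named genes are the members, METTL3, relatives of members, up to 4 genes per list and comparison with the largest change among those called (mean CPM 1 or more), and the 5 nearest genes of GDF15 and CDKN1A. Alternatives were DESeq2 1.42.0, RLE size factors, library size alone, other filters, no fold threshold, only the groups compared, a replicate block, omission of each library and, added after seeing the data, offsets for GC content and length (spline of 5 degrees of freedom) and omission of both libraries that stood apart. The fits were tested on simulated data. Some genes named by this rule are not reported here.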

Additional observations from a re-analysis of the deposited data

Results flagged for a closer look

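The response to R1881 with siSCR differed between the lines for FAS and SESN1 by the test of the difference itself (22Rv1 minus LNCaP:C4-2, edgeR). FAS differed by 1.02 ± 0.28 (adjusted p = 0.0104), with -0.79 in LNCaP:C4-2 and 0.24 in 22Rv1. SESN1 differed by 0.45 ± 0.14 (adjusted p = 0.0296), with -0.21 and 0.24. Without both LNCaP:C4-2 libraries that stood apart the differences were 0.93 and 0.36, and that of SESN1 then had an adjusted p of 0.0689. The same difference was -1.93 ± 0.37 for GDF15, from 2.62 in LNCaP:C4-2 and 0.69 in 22Rv1, a description without a test because it uses the vehicle libraries on which GDF15 was chosen.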

How the results depend on the processing

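The number of the 9 members called is the count compared here. Where the share of all genes called in the same fit is not printed, a change in the count is not read as a result about the members. No called value changed sign under the alternatives run. Values under the fold threshold did change sign. Among them, RRM2B between the lines passed the adjusted p in both directions (0.32, and -0.18 with the GC offset). Where the count includes GDF15 in LNCaP:C4-2 vehicle libraries it is a description, since GDF15 was chosen on them. With no fold threshold the count was 2 for depletion with R1881 in LNCaP:C4-2 and 5 in 22Rv1, beside 0.937% and 16.2% of all genes. For R1881 in 22Rv1 it was 2 (siSCR) and 5 (siMETTL3), beside 33% and 33.1%. With library size alone it was 2 and 2 for R1881 in 22Rv1, and the median of all genes moved to -0.15 for R1881 in LNCaP:C4-2 with siSCR and to 0.18 between the lines. With no filter on low counts it was 2 for depletion in vehicle and 3 with R1881 in LNCaP:C4-2, 1 for each interaction and 2 for R1881 in 22Rv1 with siSCR. In that fit GDF15 kept its log2 fold change for depletion with R1881 in LNCaP:C4-2 (0.60 against 0.61) while its SE was 0.10 against 0.32, so its added call there rests on a smaller SE and not on a larger change. Fitting only the groups compared gave 2 for R1881 in 22Rv1 with siMETTL3.

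Libraries with the same replicate number did not deviate together (mean correlation over 18 pairs of -0.013 for LNCaP:C4-2, and of -0.0074 for 22Rv1), and the labels say nothing of pairing. With a replicate block 0 members were called for depletion with R1881 in LNCaP:C4-2, where FAS had an adjusted p of 0.0915 and SESN1 of 0.0819.

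Of the alternatives chosen after seeing the data, the GC offset and the GC and length offset each gave 0 members for depletion with R1881 in 22Rv1, 3 for R1881 in 22Rv1 with siMETTL3 and 5 for the difference between lines of the R1881 response. Leaving out both libraries that stood apart gave 3 for depletion in LNCaP:C4-2 in vehicle and 3 with R1881, beside 4.18% and 11.3% of all genes. DESeq2 gave no adjusted p for FAS for depletion with R1881 in LNCaP:C4-2, so no count is given for it. The filter of at least 10 counts in every library removed TP53I3 from the 22Rv1 and line fits.

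Omission of 1 library gave 0 to 2 members for depletion in vehicle and 0 to 3 with R1881 in LNCaP:C4-2, 0 to 0 and 0 to 1 in 22Rv1, 1 to 2 (siSCR, against 3 with all libraries) and 2 to 2 (siMETTL3) for R1881 in LNCaP:C4-2 and 1 to 2 with either siRNA in 22Rv1. It gave 0 to 0 for both interactions and the line difference in depletion, 5 to 6 between lines and 2 to 4 for the line difference in the R1881 response. BBC3 joined FAS and GDF15 for depletion with R1881 in LNCaP:C4-2 without siSCR library 1. Depth limits FAS in LNCaP:C4-2 and TP53I3 in 22Rv1, at 13 to 67 and 7 to 42 counts a library.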
